A study of Mus musculus with 96 samples.

Results

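Transcripts of 10 BCL2 family genes were described in single cells of the mouse lung line C10, untreated or treated with RO-3306. The members were taken by name from the 40202 genes in the count files. They are the anti-apoptotic Bcl2, Bcl2l1 (which encodes BCL-XL) and Mcl1, the BH3-only genes Bcl2l11 (BIM), Bbc3 (PUMA), Pmaip1 (NOXA), Bid and Bad, the effector Bak1, and Bnip3, a mitochondrial relative that serves as a receptor for mitophagy. No measured value entered the choice by its rule. Each of 96 libraries came from 1 sorted cell, 48 labelled as having no treatment (control) and 48 labelled RO-3306, which is sold as an inhibitor of the mitotic kinase CDK1. The labels' protocols give 10 nM and 36 h for the compound, a dose printed here as labelled and not checked by any value in the files, and describe SMART-seq v4 cDNA read with single reads of 150 nt. No genotype, passage or separate culture is named, and both groups share the line and the medium.

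Proteins of this family decide whether the outer mitochondrial membrane is opened during apoptosis. Anti-apoptotic members hold the effectors BAX and BAK in check, and BH3-only members either block the anti-apoptotic ones or engage the effectors directly. Opening of the membrane releases cytochrome c, which assembles the apoptosome and sets off caspases. Many members are controlled after transcription, by cleavage (BID), phosphorylation (BAD) or rapid turnover (MCL1), so transcript levels describe only 1 layer of the system.

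Cells with at least 50000 counts and 1000 genes with a count were kept, which left 29 control and 37 RO-3306 cells. Their totals were 59979 to 6457215 and 295005 to 5321880 counts, with medians of 1753427 and 2234309. At an equal depth of 639000 reads the median cell had 4589 genes with a count among 25 control cells and 5950.5 among 34 treated ones, so genes were detected more widely in the treated group as a whole. The median mitochondrial share was 3.40% in control and 4.42% in RO-3306, and 1 RO-3306 cell (B3) had 56.0%. Without that cell the same 4 members were called as with it. Of the 8 alveolar type II markers checked, 2 had a count in control and 3 in RO-3306, with summed levels of 9.61 and 5.40 CPM, and Sftpc, Sftpa1 and Sftpd were at 0 in both groups. The 7 mesenchymal markers summed to 5594 and 2531 CPM. The 6 macrophage markers summed to 32.2 and 336 CPM, with Adgre1 and Csf1r at 0 in RO-3306, and the part of either marker list in the members' values was not tested. Of 6 general epithelial markers, 3 had a count in control and 4 in RO-3306, with summed levels of 1.78 and 0.978 CPM. The highest single cells were at 396 and 48.2 CPM. The marker transcripts checked here thus did not bear out the labelled epithelial type, and the cells are called C10 cells here.

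Values are given in CPM, a count scaled to a total of 1000000. For a group this is the summed count of its kept cells over their summed totals. Ratios compare RO-3306 with control on the log2 scale, with 1 CPM added to both. Each treatment was 1 sample of many cells, so no test between treatments could be made, and the treatment cannot be told apart from any difference between the dishes. Intervals are at the 95% level. Those of levels and ratios cover counting error of reads only, with PCR copies counted as reads, and not the spread between cells. Those of shares of cells cover only the number of cells drawn within a group. A gene was called higher or lower when its log2 ratio was at least 1 or at most -1 and had the same sign in each of the lettered sets A to D in the library titles. The letters have no stated meaning and the sets are not replicates.

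Of the 10 members, 8 had counts and 7 reached a mean of 5 CPM over the groups. Among these 7, Bid and Bnip3 were called higher in RO-3306 cells, where 7.23% of all 9374 genes of at least 5 CPM were called higher. Bcl2 was called lower, where 6.43% of those genes were. Bcl2l11, at a mean under 5 CPM, was also called higher, a call made for 7.26% of the 11909 genes with 1 CPM or more. Bcl2l1, Mcl1, Bbc3 and Bad were not called. The median log2 ratio of the 9374 genes was -0.22, with quartiles of -0.98 and 0.43.

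The promoter windows of the 3 called members that reached 5 CPM are shown because these genes carry the differences described below. They are the 250 bases before the transcription start from RefSeq on GRCm38.p6, an older assembly than the GRCm39 used for the counts. Windows were read for 9 of the 10 members and not for Pmaip1, so its promoter was not examined. Capitals in Bnip3 mark ACGTG, the core of the element bound by hypoxia-inducible factors, read here from both strands in 1 overlapping site. Capitals in Bid and Bcl2 mark GGGCGG, the GC box bound by Sp1-like factors, on either strand.
Bnip3 (chr7:138909507-138909756, minus strand): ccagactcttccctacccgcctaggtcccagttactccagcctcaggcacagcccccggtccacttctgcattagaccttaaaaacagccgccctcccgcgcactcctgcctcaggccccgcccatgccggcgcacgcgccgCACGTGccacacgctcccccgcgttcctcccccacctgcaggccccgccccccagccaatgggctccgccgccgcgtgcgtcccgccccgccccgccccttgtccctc
Bid (chr6:120916825-120917074, minus strand): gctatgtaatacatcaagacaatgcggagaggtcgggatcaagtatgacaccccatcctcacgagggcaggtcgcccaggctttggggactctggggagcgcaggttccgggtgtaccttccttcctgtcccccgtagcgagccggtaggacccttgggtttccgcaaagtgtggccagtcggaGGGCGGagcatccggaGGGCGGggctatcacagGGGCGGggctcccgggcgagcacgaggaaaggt
Bcl2 (chr1:106714291-106714540, minus strand): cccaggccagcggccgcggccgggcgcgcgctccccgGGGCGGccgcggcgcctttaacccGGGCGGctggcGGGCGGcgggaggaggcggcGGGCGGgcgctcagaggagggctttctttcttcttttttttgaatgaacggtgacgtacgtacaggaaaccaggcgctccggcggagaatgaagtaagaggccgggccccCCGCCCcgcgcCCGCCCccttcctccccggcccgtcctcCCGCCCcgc
ACGTG was present on either strand in 16.6% of all 32851 windows of the same length, and GGGCGG in 32.7%. ACGTG was not particular to Bnip3, since it also matched in a window of Bbc3, which was not called, and in that of Bax. GGGCGG occurred 7 times in the Bcl2 window, 3 times in that of Bid and 6 times in that of Bnip3, so it was shared by members that were higher and the member that was lower. TATAAA, the TATA box core, was in 12.4% of all windows and in none of the 15 windows read for the 9 members. A match describes letters only and not a bound site.

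**Figure D1:**
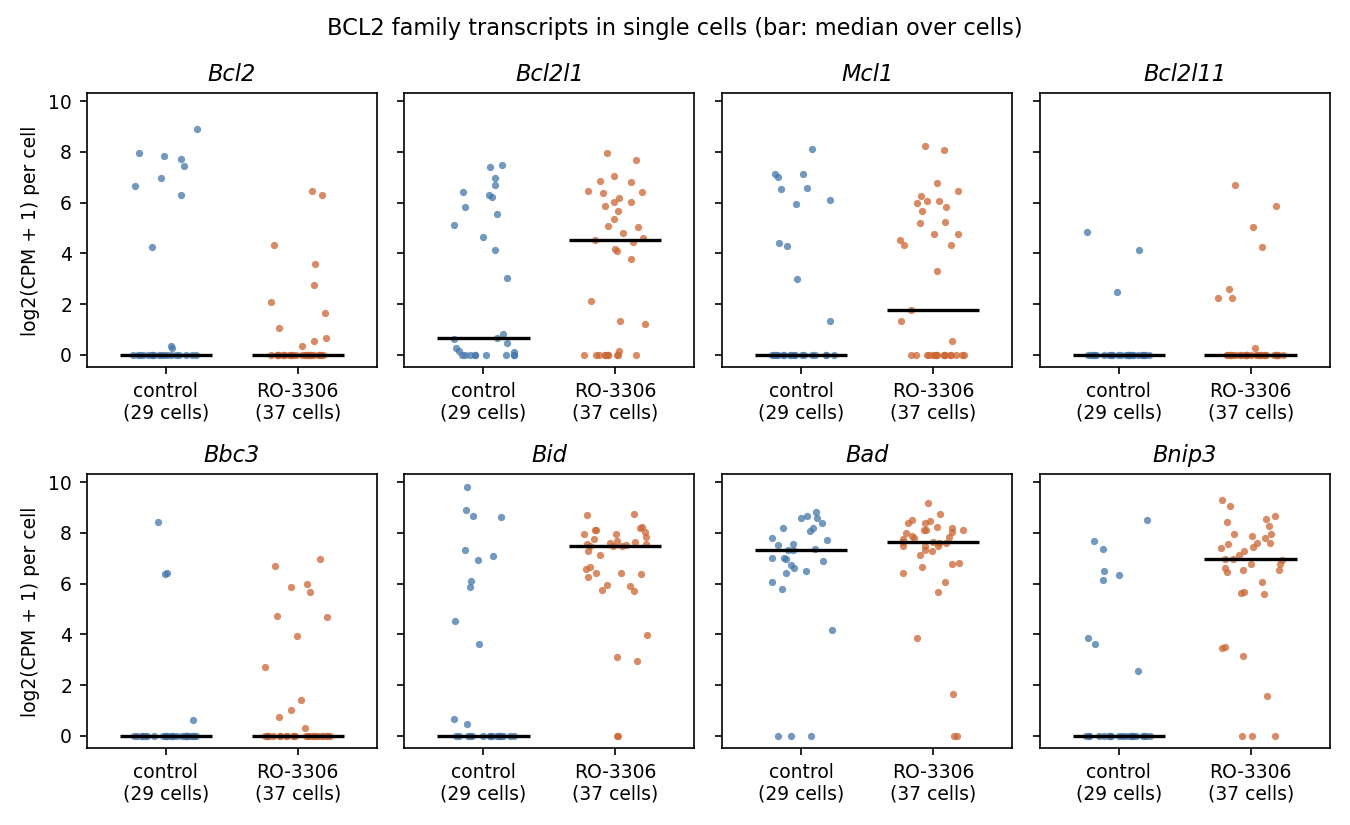
Level of each detected BCL2 family member in single cells, as log2(CPM + 1), with 1 point per kept cell (29 control, 37 RO-3306) and a bar at the median. The medians of Bid and Bnip3 lie at 0 in control and high in RO-3306, the Bad medians lie close together, and the upper Bcl2 points are fewer and lower in RO-3306.

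Among the anti-apoptotic members, Bcl2 (chromosome 1, 106465906 to 106642020 on GRCm39) stood out. BCL2 sits in the outer mitochondrial and endoplasmic reticulum membranes and sequesters BH3-only proteins. In control cells its level ran from 0 to 483 CPM with a median of 0, and in RO-3306 cells from 0 to 88.0 CPM, also with a median of 0. About as many cells held a count, 11 of 29 in control and 11 of 37 in RO-3306, so the treatments overlapped fully at the low end and differed in the upper tail. Of the control cells 8 had at least 50 CPM, against 2 of the RO-3306 cells. Among the cells with a count, the control median was 126 CPM and the RO-3306 median 3.20 CPM.

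Summed over cells, Bcl2 was at 65.0 CPM in control (63.0 to 66.9) and 5.32 CPM in RO-3306 (4.86 to 5.81), which is 12.2-fold lower (11.1 to 13.4). The log2 ratio was -3.38, and in sets A, B, C and D it was -1.36, -4.77, -3.33 and -6.68. Transcripts as long as that of Bcl2 were lower in general, with a median log2 ratio of -0.88 among genes of like mRNA length, and Bcl2 lay 2.51 below that median. Cells with a Bcl2 count were deeper than cells without one, with median totals of 2444989 and 1515981 in control and 2915500 and 2072860 in RO-3306. The part of depth was not tested beyond thinning, after which 8 of 25 control and 7 of 34 RO-3306 cells held a count. The level rests on few cells, since 3 cells held 59.8% of the control counts and 1 cell, C6, held 52.1% of the RO-3306 counts. Without control cell A7 or C7 the log2 ratio was -3.27 or -3.11 but a set changed sign and the call was lost. Without RO-3306 cell C6 it was -4.18.

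Bcl2l1, whose BCL-XL protein guards many epithelial and blood cells, was the most widely detected anti-apoptotic member. It had a count in 20 of 29 control cells, from 0 to 178 CPM with a median of 0.581, and in 27 of 37 RO-3306 cells, from 0 to 246 CPM with a median of 22.2. The groups overlapped over most of this range. Its summed level was 37.2 CPM in control (35.7 to 38.7) and 46.9 CPM in RO-3306 (45.5 to 48.3), a log2 ratio of 0.33. The sets did not share a sign, with -0.39, 0.83, 2.17 and -0.86 in A to D.

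Mcl1 encodes a short-lived protein that restrains BAK and BIM. Control cells ran from 0 to 274 CPM with a median of 0 and a count in 12 of 29, and RO-3306 cells from 0 to 303 CPM with a median of 2.37 and a count in 21 of 37. The summed level was 44.6 CPM (43.0 to 46.2) and 34.9 CPM (33.7 to 36.1). The log2 ratio was -0.35, and in the sets it was -0.74, 0.45, -1.78 and 4.37. No control cell of set D had an Mcl1 count, so the value in that set is set by the pseudocount.

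Summed over Bcl2, Bcl2l1 and Mcl1, the anti-apoptotic transcripts came to 147 CPM in control (144 to 150) and 87.1 CPM in RO-3306 (85.2 to 89.0), and per cell the medians were 78.9 and 71.9 CPM. The sums thus differed by more than the median cells did. In 5 control and 5 RO-3306 cells none of the 3 genes had a count. Of the 11 control cells that held Bcl2, 10 also held Bcl2l1 and 4 held Mcl1. Of the 11 such RO-3306 cells, 8 held Bcl2l1 and 4 held Mcl1, beside 27 and 21 of all 37 RO-3306 cells.

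Among the BH3-only members, Bid (chromosome 6, 120870080 to 120894074) differed mainly in how many cells held a count. BID is cleaved by caspase-8, and its truncated form carries death-receptor signals to the mitochondrion. Control cells ran from 0 to 901 CPM with a median of 0, and RO-3306 cells from 0 to 429 CPM with a median of 178. A count was present in 13 of 29 control cells (44.8%, 26.4% to 64.3%) and in 35 of 37 RO-3306 cells (94.6%, 81.8% to 99.3%). The groups overlapped in range, and the 2 highest cells were control cells, but most control cells were at 0.

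At equal depth Bid was found in 12 of 25 cells without treatment and 33 of 34 with it, a difference of 49.1 percentage points. Bid and Bnip3 were the members whose share differed by at least 40 points, which 4.93% of the 9374 genes did, and the median difference over those genes was 9.06 points. The summed level of Bid was 71.7 CPM in control (69.7 to 73.8) and 170 CPM in RO-3306 (167 to 172), a ratio of 2.37 (2.29 to 2.44) and a log2 ratio of 1.23. Sets A to D gave 0.50, 1.68, 2.44 and 2.76. In set A 7 of 10 control cells held Bid, whereas in sets B, C and D it was 2 cells each. Leaving out any single cell kept the call, with log2 ratios of 1.09 to 1.62. The call was lost as the mean over cells (0.75), after thinning (0.84), without set B (0.98) and without set C (0.92).

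Bad, whose protein is held inactive by survival kinases, was the most evenly detected member. Control cells ran from 0 to 458 CPM with a median of 159, and RO-3306 cells from 0 to 580 CPM with a median of 197, so the groups overlapped almost entirely. Bad was seen in 26 of 29 control and 35 of 37 treated cells. Its summed levels were 193 CPM (189 to 196) and 201 CPM (198 to 204), a log2 ratio of 0.06. The sets gave -0.07, 0.95, -0.94 and 0.62. Every cell of either group that held Bid also held Bad, 13 in control and 35 in RO-3306.

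Bbc3 encodes PUMA, a classical target of p53 that binds all anti-apoptotic relatives. It was sparse, with a count in 4 of 29 control cells (0 to 341 CPM, median 0) and 13 of 37 RO-3306 cells (0 to 123 CPM, median 0). At equal depth it was found in 2 of 25 and 10 of 34 cells. The summed levels were 6.95 CPM (6.33 to 7.62) and 14.9 CPM (14.1 to 15.7), and the log2 ratio was 1.001. Bbc3 was not called because set C gave -2.47 while A, B and D gave 0.27, 3.35 and 1.72. The mean over cells had the other sign, -0.43, with control cell D2 alone at 341 CPM. Without control cell C12 the log2 ratio was 1.44 and the call was made, and without control cell A2 it was 1.76 with no call.

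Bcl2l11 encodes BIM, which binds every anti-apoptotic member and activates BAX and BAK. It had a count in 3 of 29 control cells (0 to 27.8 CPM, median 0) and 8 of 37 RO-3306 cells (0 to 102 CPM, median 0). The summed levels were 1.65 CPM (1.36 to 1.99) and 6.85 CPM (6.33 to 7.41), a log2 ratio of 1.57, and the sets gave 2.28, 1.76, 0.58 and 0.65. In each group the cell titled D9 held most of the counts, 83.5% in control and 67.5% in RO-3306, and whether reads passed between these libraries was not tested. Without RO-3306 cell D9 the log2 ratio was 0.33, and without control cell D9 it was 2.61. The call was also lost without RO-3306 cell B1 (1.47) or C1 (1.55), each the only cell of its set with a count. With a pseudocount of 5 CPM the log2 ratio was 0.83 and Bcl2l11 was not called.

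Pmaip1, which encodes the MCL1-binding protein NOXA, had no count in any of the 96 libraries. The limit that 3 counts allow was 0.0454 CPM for control and 0.0323 CPM for RO-3306. Bak1 encodes the effector BAK, which forms pores in the outer membrane together with BAX. It also had no count, but 100% of its gene span lies inside that of Ggnbp1, and reads over 2 gene spans were left uncounted by default. Its zero therefore does not measure its level.

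The 4 detected BH3-only genes, with Pmaip1 at 0, summed to 273 CPM in control (269 to 277) and 393 CPM in RO-3306 (389 to 397), with cell medians of 227 and 371 CPM. Within single cells the BH3-only sum was above the anti-apoptotic sum in 18 of 29 control cells and in 34 of 37 RO-3306 cells. The opposite order was seen in 8 control and 2 RO-3306 cells. These are sums of CPM over genes of different length, and longer transcripts weigh more in them. A median of 4 members had a count in a control cell and 5 in an RO-3306 cell, also after thinning, and at least 5 members were found in 7 and 24 cells. Over all genes, the median cell at equal depth had 4589 genes with a count in control and 5950.5 in RO-3306, a difference in the same direction.

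Bnip3 (chromosome 7, 138492565 to 138511235) had the largest difference in the share of cells among the members. BNIP3 tethers mitochondria to the autophagy machinery and is best known as a gene induced in low oxygen. Control cells ran from 0 to 363 CPM with a median of 0, and RO-3306 cells from 0 to 628 CPM with a median of 125. A count was present in 9 of 29 control cells (31.0%, 15.3% to 50.8%) and in 34 of 37 RO-3306 cells (91.9%, 78.1% to 98.3%). At equal depth it was found in 9 of 25 and 31 of 34 cells, a difference of 55.2 points. The ranges overlapped, yet most control cells were at 0 and few RO-3306 cells were.

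Summed over cells, Bnip3 was at 59.4 CPM in control (57.5 to 61.3) and 179 CPM in RO-3306 (176 to 182), a ratio of 3.01 (2.91 to 3.12) and a log2 ratio of 1.57. The sets gave 2.15, 0.19, 2.28 and 6.78. Control cell B4 held 59.7% of the control counts, and without it the log2 ratio was 2.71. Set B had the smallest ratio, and the call was lost without control cell B5 (1.46) or B6 (1.48) or RO-3306 cell B12 (1.53). Bnip3 counts were fractional in 80.0% of the libraries that had any, so part of its reads was shared with other sites in the genome. Bid and Bnip3 were found together in 7 control and 33 RO-3306 cells, and 14 control cells and 1 RO-3306 cell had neither.

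**Figure D2:**
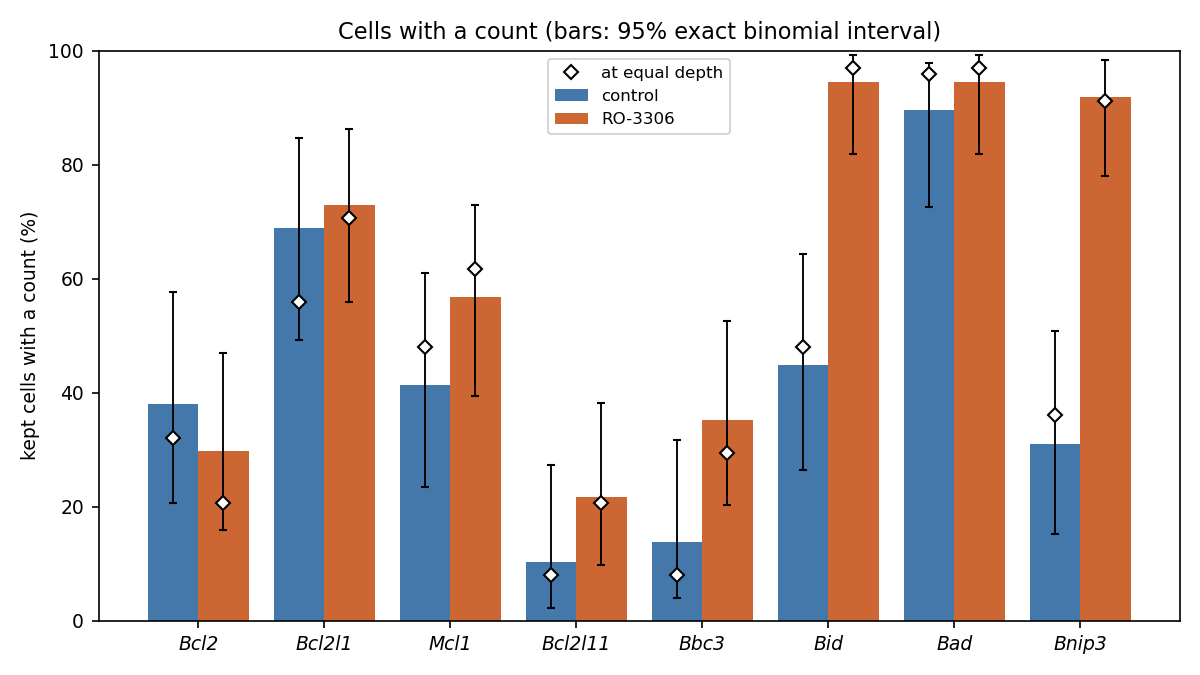
Share of kept cells with a count of each detected member, in percent, for control (29 cells) and RO-3306 (37 cells). Error bars are exact 95% binomial intervals and diamonds give the share at equal depth. The intervals of the groups are apart for Bid and Bnip3 and overlap for the other members. They cover only the cells drawn within a group and are no test between treatments. How often intervals lie apart across the transcriptome is not given.

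**Figure D3:**
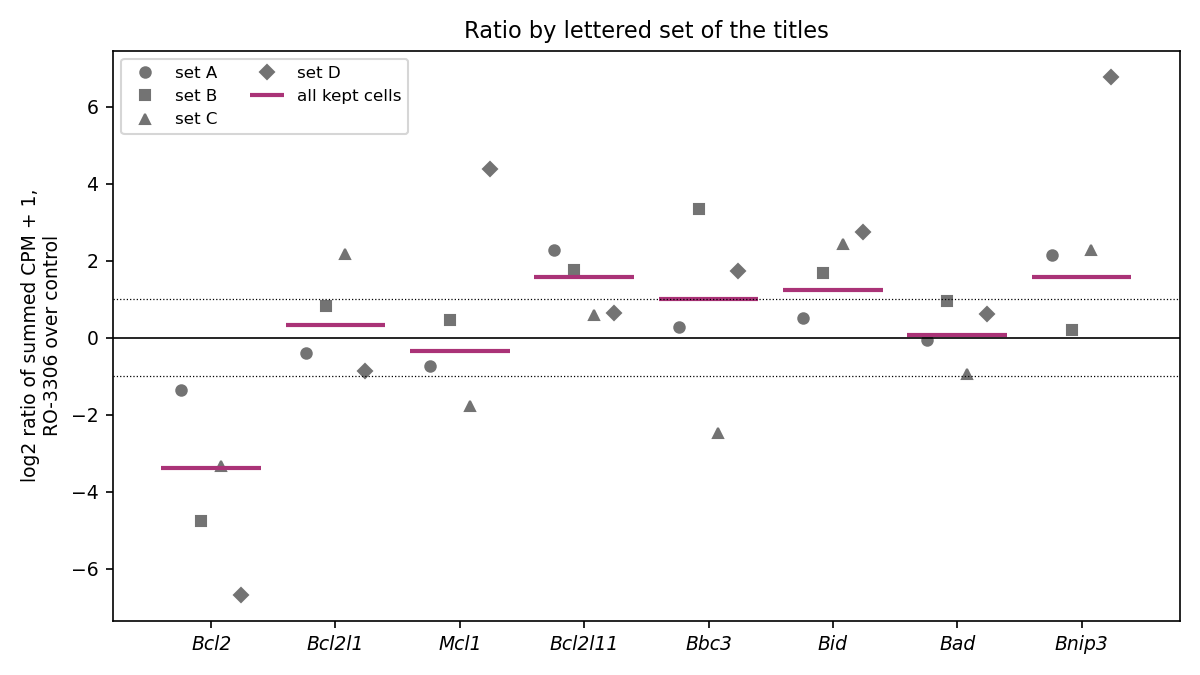
Log2 ratio of RO-3306 over control for each detected member, over all kept cells (line) and in each lettered set A to D (grey symbols), with dotted lines at -1 and 1. Bcl2 lies below 0 in each set, Bcl2l11, Bid and Bnip3 above 0, and the other members on both sides.

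Compared per kilobase of mRNA, Bad was the most abundant member in both groups, at 126 CPM per kb in control and 131 in RO-3306. In control it was followed by Bnip3 (33.8), Bid (32.8), Bcl2l1 (14.5), Mcl1 (13.0), Bcl2 (9.03), Bbc3 (3.83) and Bcl2l11 (0.328 CPM per kb). In RO-3306 the order after Bad was Bnip3 (102), Bid (77.5), Bcl2l1 (18.3), Mcl1 (10.2), Bbc3 (8.22), Bcl2l11 (1.36) and Bcl2 (0.739 CPM per kb). Bcl2 was thus the lowest of the anti-apoptotic genes in control and the lowest of all detected members in RO-3306. Bnip3 and Bid in control were the neighbours whose counting intervals overlapped, and no spread over samples exists for this order. Counts cover introns, while lengths are those of mature transcripts.

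Across cells within a group, correlations among Bid, Bad, Bnip3 and Bcl2l1, the members compared with each other, were weak. The rank correlation of Bid with Bnip3 at equal depth was 0.42 over 25 control cells and 0.16 over 34 RO-3306 cells. Bid with Bad gave 0.18 and -0.07. Genes of at least 50 CPM were compared with the more widely detected members Bcl2l1, Mcl1, Bid, Bad and Bnip3. None reached a mean within-group correlation of 0.5, the highest being 0.49 for Zpr1 with Bid. Bcl2, Bcl2l11 and Bbc3 were too sparse to be compared. No separate culture is named for the cells of a group, and such values describe sparse counts at equal depth only.

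The other genes of the pathway were followed through 9 lists of 80 genes, of which 61 reached 5 CPM. Of these 5 were called higher (8.20%) and 4 lower (6.56%), and their median log2 ratio was -0.08. These shares lie near those of all genes. Among the 8 measured relatives outside the 10 members, Bax and Bcl2l15 were called higher and Bcl2l13 lower. Of the genes called lower in the lists, Bcl2l13, Birc6 and Usp9x have long mRNAs, of 6925, 15768 and 11887 nt. Genes of mRNA length like that of Bcl2 (7191 nt) had a median log2 ratio of -0.88, and the part of length in these calls was not tested.

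Bax, the effector that partners BAK, ran from 0 to 574 CPM with a median of 182 in control cells and from 3.88 to 972 CPM with a median of 472 in RO-3306 cells. Bax was seen in 26 of 29 control cells and in all 37 treated ones. The summed level was 193 CPM (189 to 196) against 492 CPM (488 to 497), a log2 ratio of 1.35 with 0.74 to 2.10 in the sets. The 8 p53 targets outside the family had summed levels of 617 and 1647 CPM in the same order, while Trp53 itself had a log2 ratio of -0.20. The rank correlation of Bid with the summed level of these targets at equal depth was 0.007 over 25 control cells and 0.027 over 34 RO-3306 cells. In the same order it was -0.32 and 0.46 for Bcl2l1, 0.06 and 0.05 for Mcl1, 0.18 and 0.14 for Bad, and -0.36 and 0.06 for Bnip3. The part of p53 in the values of Bax, Bbc3 or Bid was not tested. Bcl2l15, a less studied relative, had a count in 2 of 29 control and 24 of 37 RO-3306 cells, at 1.17 CPM (0.920 to 1.46) and 60.5 CPM (58.9 to 62.1). Its log2 ratio was 4.83, and 5.85 without control cell D8. Bcl2l13, another mitophagy receptor, was at 75.6 and 21.7 CPM, a log2 ratio of -1.76, but the call was lost without control cell A7, C2 or C8 (-1.53, -1.74 and -1.76). Bnip3l, the closest relative of Bnip3, was not called at 0.58, although it was above 0 in each set.

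Downstream of the membrane, Cycs, which encodes cytochrome c, had a log2 ratio of 0.35 and was not called. Apaf1, the scaffold of the apoptosome, was at 40.3 and 9.57 CPM, with sets on both sides of 0. Of the caspase inhibitors, Birc6 was called lower at 42.3 and 4.97 CPM (-2.86). Without control cell A9 it was -2.19, and the call was lost without control cell B4 (-2.80), C8 (-2.89) or D9 (-2.82). Without RO-3306 cell A11 it was -3.79. Xiap (0.42) and Birc5 (0.21) were not called, nor were the death receptor Fas (0.21) and Vdac2 (-0.37), an outer membrane channel that binds BAK.

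Of the transcription factors known to drive BH3-only genes, Ddit3, which encodes the stress factor CHOP, was called higher, from 60.9 CPM without to 566 CPM with RO-3306. Its log2 ratio was 3.19, from 2.28 to 4.20 in the sets, and leaving out single cells gave 3.11 to 3.40. Atf4, which acts upstream of Ddit3, was at 1104 and 1046 CPM (-0.08). Foxo3 was called at 0.212 and 6.77 CPM, under the 5 CPM mean, and not without RO-3306 cell D9 (2.74). Of the genes acting on MCL1 turnover, the deubiquitinase gene Usp9x was called lower at 38.0 and 10.9 CPM (-1.71), and not without control cell B5 (-1.18), C7 (-1.66) or D9 (-1.71).

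Of 7 measured mitophagy genes, Sqstm1 and Map1lc3b were called higher, with log2 ratios of 1.20 and 1.16, where 7.23% of all genes were. The other members of the list were not called. Phb2, which encodes the inner membrane prohibitin 2, had a log2 ratio of -0.72 and was below 0 in each set, and Pink1, a kinase gene that starts mitophagy, had -0.47. Sqstm1, an autophagy cargo receptor, had a cell median of 391 CPM without RO-3306 and 895 CPM with it. Map1lc3b, which encodes the LC3B protein of autophagosomes, had medians of 171 and 495 CPM. Both were still called whichever single cell was left out. A further list held genes induced with Bnip3 in low oxygen, together with Hif1a, which encodes a hypoxia-inducible factor itself. Of the 11 measured genes of this list 0 were called, beside 7.23% called higher and 6.43% lower among all genes, so few calls could fall in so short a list. Their median log2 ratio was -0.08. The rank correlation of Bnip3 with the summed level of that list at equal depth was 0.11 over 25 control cells and 0.45 over 34 RO-3306 cells. In the same order it was 0.08 and -0.13 for Bcl2l1, 0.19 and -0.48 for Mcl1, -0.28 and -0.06 for Bid, and -0.34 and -0.20 for Bad. Values of this size were thus not particular to Bnip3. Hif1a had a log2 ratio of 0.52 with sets on both sides of 0. The summed level of the 8 G2/M markers was 1672 CPM without RO-3306 and 1669 CPM with it.

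**Figure D4:**
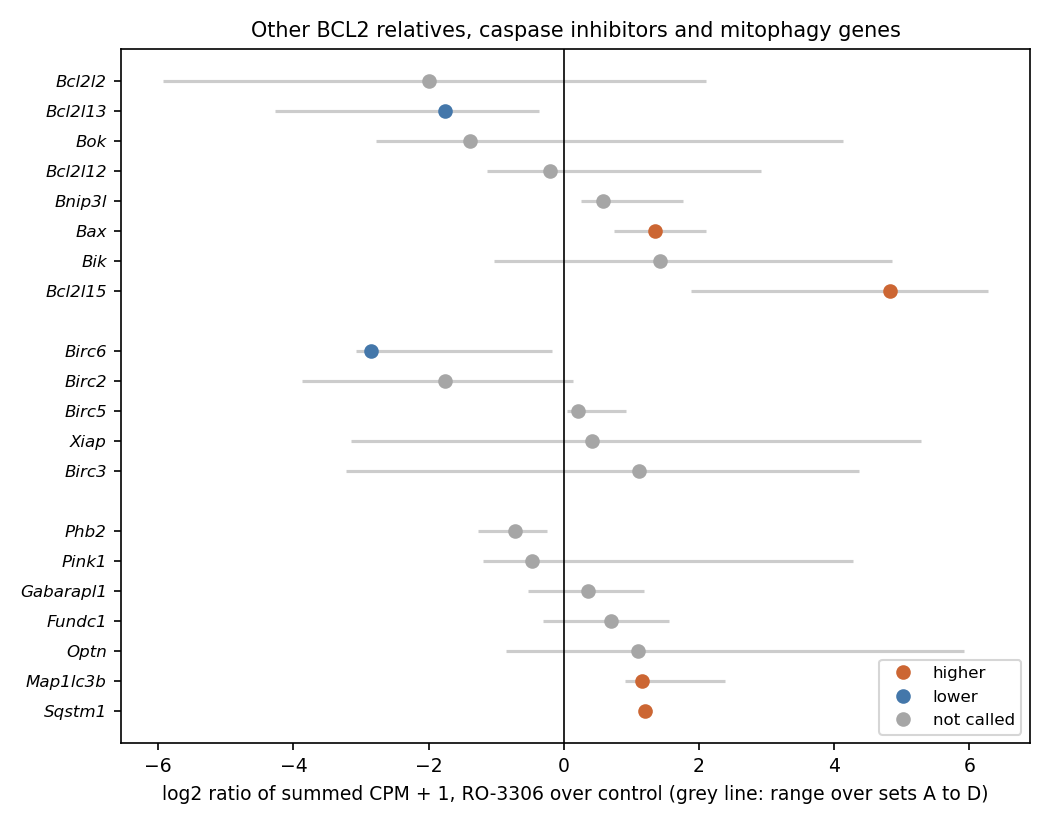
Log2 ratio of RO-3306 over control for measured genes of at least 5 CPM in 3 of the lists, from top to bottom other BCL2 relatives, caspase inhibitors and mitophagy genes. Points are ratios over all kept cells, coloured by call, and grey lines span sets A to D. Bax, Bcl2l15, Map1lc3b and Sqstm1 are called higher, and Bcl2l13 and Birc6 lower.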

How the data were processed

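Single-cell RNA sequencing of 96 C10 cells was deposited as 1 file of expected counts per gene and library. Per the file headers, the authors counted reads with featureCounts 2.0.3 over whole RefSeq gene spans of GRCm39, introns included, and a read with several placements was split into equal fractions. No strand option is recorded, so the counts ignore strand by default. STAR and FastQC are named in the submitters' processing notes without a version. Without molecular identifiers, PCR copies are counted too.

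Samples were grouped by the treatment label. Sums, CPM, a pseudocount of 1 CPM, exact Poisson and Clopper-Pearson intervals at 95%, and thinning to 639000 reads were computed in Python 3.11.15 using scipy 1.17.1, numpy 2.4.6 and pandas 2.3.3. Fractions were rounded for intervals and thinning. edgeR 4.0.16 and DESeq2 1.42.0 in R 4.3.3 gave scaling factors as alternatives, with no count test. The steps were tested on simulated data. mRNA lengths came from GENCODE M21 by symbol. No doublet caller was run on these single sorted cells.

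All 10 members are named, with the called genes of the wider lists and Bax, Ddit3, Atf4, Trp53, Apaf1, Cycs, Xiap, Birc5, Fas, Vdac2, Bnip3l and Hif1a whatever their values; 1 further gene of this rule is not reported here. Genes correlated with a member were to be named from a mean of 0.5, and Zpr1 and the markers were named outside this rule. The members and lists were chosen with earlier results of these data known. Leaving out each cell in turn was added after the values were seen. Libraries under the minimum, 19 control and 11 RO-3306, were left out.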

Additional observations from a re-analysis of the deposited data

How the results depend on the processing

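Over 128 recomputed member values, 67 moved by no more than counting error, 61 moved further, and no called value changed sign. From 2 to 4 members were called higher and 1 lower under the settings that kept every cell, left out a lettered set, filtered cells or left out the top cell of each group, while without control cell A7 or C7 alone Bcl2 was no longer called. Among the anti-apoptotic members only Bcl2 was called over all kept cells. The log2 ratio of the anti-apoptotic sum was -0.75, and -0.59 with TMM factors, -0.57 as the mean over cells, -0.58 after thinning, and -0.90, -0.95 and -0.53 without sets A, B and D. That of the BH3-only sum was 0.52, and 0.68 with TMM factors, 0.40 as the mean over cells, 0.45 after thinning, and 0.93, 0.20, 0.61 and 0.46 without sets A, B, C and D. TMM factors raised the median log2 ratio of all genes by 0.15. Among wider genes of at least 50 CPM, 0 were called lower, since the 4 called at 5 CPM lie below that level in the mean. Causes of the other moves were not tested. No paired analysis was possible because no test was made and the numbers in the titles name single cells. The few cells with a count limit what can be said of Bcl2l11 and Bbc3, and nothing can be read for Bak1.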
